A study of Mus musculus with 12 samples.

Results

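Semaphorins, plexins, neuropilins, Slits, Robos and netrins with their receptors are the guidance genes described here, in mouse airway organoids with and without laser ablation of a few cells. Members were every gene listed under a symbol of these families (Sema3 to Sema7, Plxn, Nrp, Slit, Robo, Ntn, Unc5, Neo1 and Dcc), which gave 48 of 55401 genes. Of these, 30 reached 10 normalized counts in at least 6 of the 12 libraries and were tested, while 18 did not and are given by their levels. A normalized count is the number of reads on a gene divided by a size factor of its library.

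The organoids were grown from airway epithelial cells of the proximal airways of adult C57BL/6J mice. All of them, controls included, had been transduced with a lentivirus that encodes a Histone2A-mCherry fusion under the p63 promoter, which is active in basal cells. In the ablation group, a femtosecond laser removed 10 adjacent cells from each of the 45 organoids of a dish, and in the control group no cell was removed. Both groups were harvested 4.5 h later, with 6 dishes per group and 1 library per dish, so that each library averages all cells of a dish. Each ablation dish has a control dish of the same number, passage (14, 15 or 16 passages after P2) and culture day (14 to 20), and these 6 pairs are numbered 1, 3, 4, 5, 6 and 7. Nothing says that pairs came from separate animals, so the spread measured is that between dishes. Pairs 1, 3 and 5 belong to a first and pairs 4, 6 and 7 to a second run of library numbers, here called library sets. The titles of controls 4, 6 and 7 carry the word ablation although their treatment is given as none, and they were used as controls.

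Semaphorins are secreted or membrane-bound proteins that signal through plexins, with neuropilins as coreceptors for most secreted class 3 members. Slits bind Robo receptors, and netrins bind Dcc, Neo1 and Unc5 receptors. They were first described as cues that attract or repel growing axons, and in epithelia they are known to act on cell adhesion, the cytoskeleton, migration and branching. In the developing lung, class 3 semaphorins, netrins and Slits are known from airway branching and from the crosstalk between epithelium and mesenchyme.

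The libraries held 23631212 to 29775699 reads where whole reads could be recovered (9 of 12), and normalized totals were 27297950 to 28504390. Genes of airway basal cells and of epithelium in general were abundant in every dish. Of 7 luminal and secretory markers, Krt19, Cyp2f2, Krt8 and Krt18 had means of 86978, 49001, 25975 and 8694 counts. Scgb3a2, Muc5b and Scgb1a1 had means of 13.6, 12.6 and 3.30. Of 5 ciliated markers, Tubb4b and Rsph1 had means of 12852 and 128, and Foxj1, Ccdc39 and Dnah5 of 9.87, 8.48 and 3.48. Of 8 endothelial markers, Kdr, Emcn and Cldn5 were at 0 in every library, and the summed list gave 39.9 to 66.6 counts after ablation and 43.2 to 73.7 in controls. Most of this sum was Egfl7 (mean 49.1 counts). The 8 fibroblast markers summed to 17.98 to 42.2 and 18.8 to 48.3 counts, and Thy1 was at 0. The 8 neuronal markers summed to 1834 to 4398 and 2426 to 4217 counts, of which Tubb3 (mean 1593) and Map2 (mean 1611) made up most, while the defining neuronal genes Snap25, Rbfox3, Elavl3 and Elavl4 had means under 1 count and Syt1 was at 0. The ranges of both groups overlapped in each of these sums. Of the 7 immune markers, Cd68 (mean 122 counts) and Itgam (mean 119.6) made up most of sums of 211 to 363 counts after ablation and 216 to 369 in controls. Their ranges overlapped as well. The 7 basal markers had a median log2 fold change of 0.02, and 1 of them, the transcription factor Trp63 (p63), passed the threshold in the paired model described below (log2 fold change 0.39, adjusted p = 0.00825, and 0.187 in the model with library set). The other 6 passed it in neither model, namely Itga6 (0.14), Krt14 (0.05), Krt5 (0.02), Ngfr (-0.11), Itgb4 (-0.12) and Krt15 (-0.27). Of these, Itga6 was higher and Itgb4 lower in 6 of 6 pairs. The part of these markers in the results for guidance genes was not tested.

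Among the tested members, levels could be compared per kilobase of merged exons. Plxnb2, a receptor for class 4 semaphorins, was the most abundant, with 2791 ± 133 normalized counts per kb (SD, n = 12), and it was above the next gene in 12 of 12 libraries. Plxnb1, the closely related plexin that binds Sema4d, followed with 758 ± 72.3 per kb. The secreted ligands Sema3c (625 ± 115 per kb) and Sema3f (588 ± 34.2 per kb) and the netrin receptor Unc5b (535 ± 88.5 per kb) came next. Sema3c was above Sema3f in only 7 of 12 libraries, so these neighbours do not differ beyond their spread. Plxna1, which binds class 3 and class 6 semaphorins together with coreceptors, stood sixth with 408 ± 53.5 per kb and was above Ntn4 in all 12 libraries.

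In the middle of the order were Ntn4 (241 ± 30.6 per kb), a netrin of basement membranes, Neo1 (240 ± 14.8 per kb), a receptor of netrins and repulsive guidance molecules, Sema4b (226 ± 26.6 per kb) and Nrp2 (188 ± 38.8 per kb). Ntn4 was above Neo1 in 7 of 12 libraries. The receptor Robo1 (94.3 ± 14.8 per kb) was above its relative Robo2 (4.87 ± 1.06 per kb). Its ligand Slit2 (27.2 ± 8.66 per kb) and the class 5 semaphorin Sema5a (32.6 ± 7.95 per kb) lay in the lower part. Nrp1 (32.8 ± 12.7 per kb) and Sema5a were not separated, as Nrp1 was higher in only 3 of 12 libraries despite its larger mean. Lowest of the tested genes were Sema6d, Ntn1 and Sema3a, with 1.81 to 2.51 counts per kb.

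**Figure D1:**
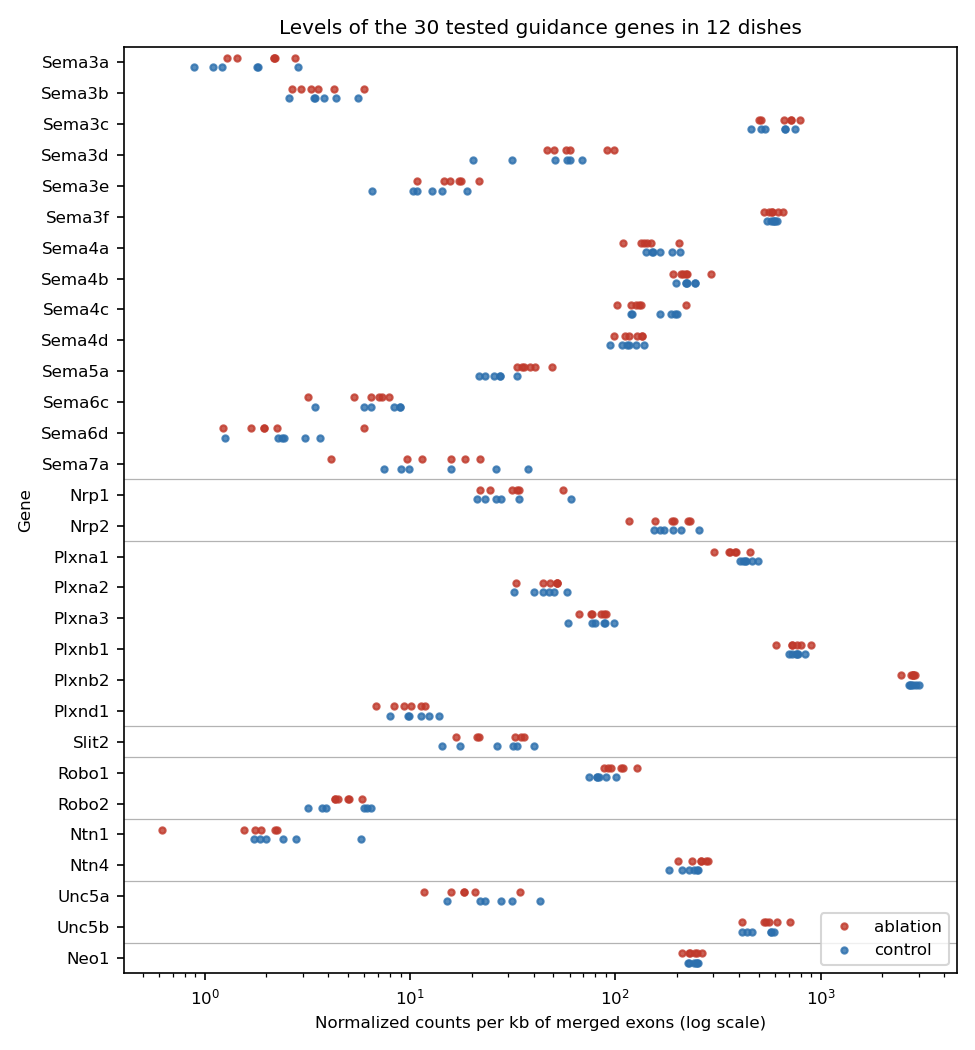
Normalized counts per kb of merged exons (log scale) of the 30 tested guidance genes, with 1 point for each of the 6 ablation dishes (red) and 6 control dishes (blue) and lines between families. Plxnb2 lies farthest to the right at a mean of 2791 per kb, and for Sema5a the ablation dishes lie to the right of nearly all control dishes.

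Whether guidance genes responded to the loss of 10 cells was asked with 2 linear models on log2 values (limma), with p-values adjusted over all 13792 tested genes. The first, planned as the main test, held condition and library set. It called 0 of the 30 members, as it called 0% of all genes. At an unadjusted p under 0.05, it had 4 of 30 members (13.3%), namely Sema5a, Robo1 and Sema3e, which were higher, and Plxna1, which was lower, against 7.85% of all genes. The second, paired model compared each ablation dish with the control of its own number. It called 3 of 30 members, against 1.09% of all genes. Sema5a and Robo1 were higher (0.674% of all genes were called higher) and Plxna1 was lower (0.413% of all genes were called lower). The members, with Sema5a and Robo1 as their given markers, were chosen with earlier results of these data known. Their shares in both models are therefore not independent of those results. Fold changes are the same in both models, and only their errors differ.

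The 30 members had log2 fold changes from -0.61 to 0.55 with a median of -0.01, and 14 were above and 16 below 0. Over all genes, the median was -0.0036. The median absolute log2 fold change was 0.13 for the members and 0.07 for all genes. Members also spread more over the dishes of both groups, with a median SD of log2 values of 0.30 against 0.17 for all genes. Ablation and control dishes overlapped for every member, while they did not overlap for 0.457% of all genes. By pairs, 4 of 30 members were higher in all 6 pairs (Sema5a, Robo1, Sema3e and Ntn4), against 5.17% of all genes, and 2 were lower in all 6 pairs (Plxna1 and Sema4a), against 4.63% of all genes. In these bulk dishes, a change in the number of cells that hold an RNA and a change in the amount of RNA per cell cannot be told apart.

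**Figure D2:**
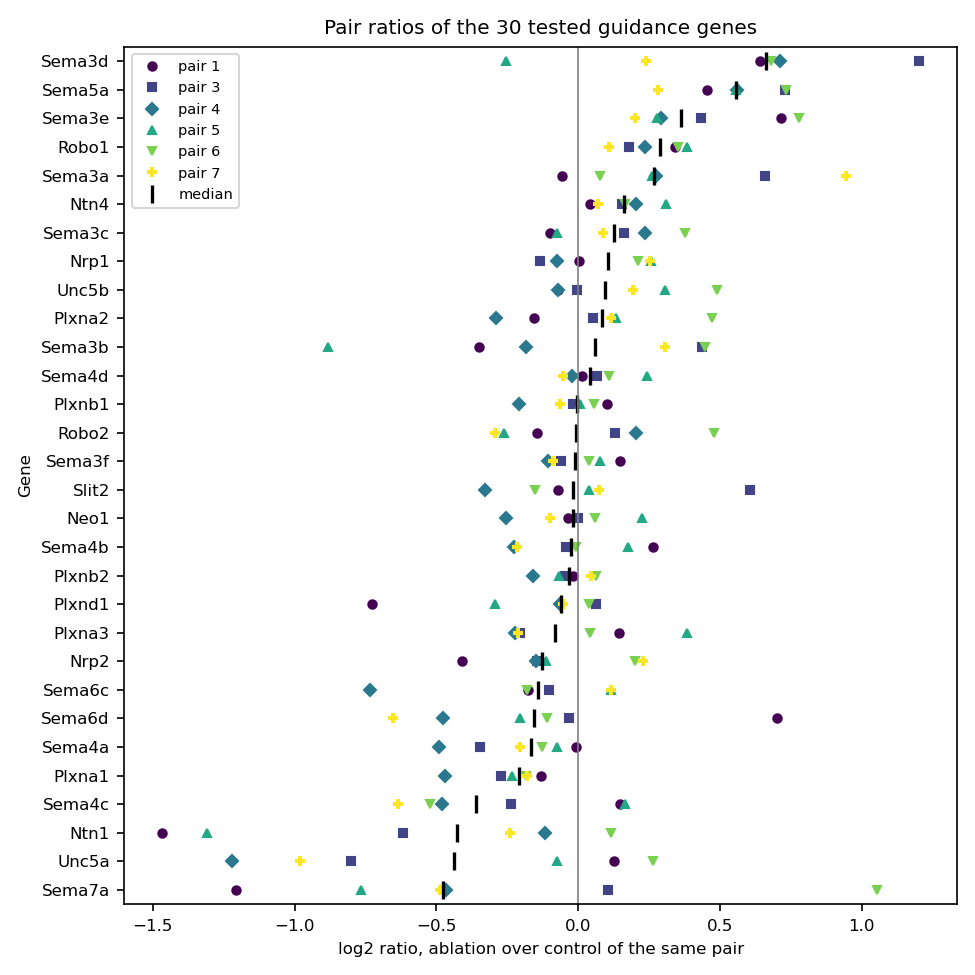
log2 ratios of ablation over control for the 30 tested members, 1 symbol per pair and a black bar for the median of 6 pairs, ordered by the median. All 6 symbols of Sema5a, Sema3e, Robo1 and Ntn4 lie right of 0 and all 6 of Plxna1 and Sema4a lie left of it.

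Sema5a encodes a transmembrane semaphorin with thrombospondin repeats, known as a guidance cue with attractive and repulsive actions. It is listed as ENSMUSG00000022231.10 at chr15:32244810-32696341 on the plus strand (GRCm38.p6), with 18686 bases of merged exons. Control dishes held 406 to 623 normalized counts with a median of 495, and ablation dishes held 623 to 916 with a median of 697. The groups touched at a single point, where ablation 7 (623.0) lay just under control 5 (623.2). All 6 pairs were higher, by 1.37-, 1.66-, 1.47-, 1.47-, 1.66- and 1.21-fold in pairs 1, 3, 4, 5, 6 and 7. The mean was 495 ± 76.2 in controls and 724 ± 105 after ablation (SD, n = 6 each), or 0.55 higher on the log2 scale.

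For Sema5a, the standard error was 0.112 in the model with library set, with an adjusted p of 0.187, and 0.0639 in the paired model, with an adjusted p of 0.00259. In the paired model it stayed past the threshold without each pair in turn (adjusted p 0.00398 to 0.0226) and within pairs 1, 3 and 5 alone (0.0389) or 4, 6 and 7 alone (0.0329). It was lost when variances were moderated without trend and robust estimation (adjusted p = 0.121), a setting in which the paired model called 0 genes in all. Sema5a was the only member for which condition took the largest share of the variance over dishes, with 67.9%, while the pair took 26.6%. Condition took the largest share in 3.55% of all tested genes. Its other class 5 relative, Sema5b, was at 0 in every library.

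Robo1 is a receptor for Slits with an immunoglobulin-like outer part, known from axon crossing and lung development. It is listed as ENSMUSG00000022883.11 at chr16:72308306-73046095 on the plus strand, with 16511 bases of merged exons. Control dishes held 1231 to 1667 counts with a median of 1363, and ablation dishes held 1451 to 2112 with a median of 1668. The groups overlapped, since control 1 (1667) exceeded 3 of the ablation dishes, but its own ablation partner was the highest dish of all. The pair ratios were 1.27-, 1.13-, 1.18-, 1.31-, 1.28- and 1.08-fold for pairs 1, 3, 4, 5, 6 and 7. The mean was 1411 ± 151 in controls and 1704 ± 241 after ablation (SD, n = 6 each), or 0.27 higher on the log2 scale. In the model with library set, the standard error was 0.0863 and the adjusted p 0.537, and in the paired model they were 0.0458 and 0.0159. The paired call was lost without pair 4 (adjusted p = 0.069) or pair 5 (0.0604), within either library set (0.104 and 0.157) and with plain moderation of variances (0.133).

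For the 2 members called higher, the 250 bases before the first transcribed base are shown, since such windows hold many of the elements that bind transcription factors. They are from RefSeq on GRCm38.p6 and run 5′ to 3′ on the plus strand, chr15:32244563-32244812 for Sema5a and chr16:72662899-72663148 for Robo1. Capitals mark matches on either strand to the motifs searched, which were the GC box GGGCGG, the AP-1 element TGANTCA, the TEAD element GGAATG, the TATA box TATAAA and the cAMP response element TGACGTCA.
Sema5a: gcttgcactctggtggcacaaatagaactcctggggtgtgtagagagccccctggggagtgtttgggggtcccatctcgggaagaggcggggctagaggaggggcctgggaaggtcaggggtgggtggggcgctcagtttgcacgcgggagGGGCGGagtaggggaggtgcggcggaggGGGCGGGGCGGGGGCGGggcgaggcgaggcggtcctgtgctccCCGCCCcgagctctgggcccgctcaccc
Robo1: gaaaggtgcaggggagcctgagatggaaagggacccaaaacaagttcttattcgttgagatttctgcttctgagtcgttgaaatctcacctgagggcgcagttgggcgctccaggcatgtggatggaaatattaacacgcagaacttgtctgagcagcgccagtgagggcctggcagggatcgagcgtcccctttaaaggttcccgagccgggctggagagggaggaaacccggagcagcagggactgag

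The Sema5a window, with 72% G and C, held 5 GC boxes, whose first bases lay 99, 71, 66, 60 and 28 bases before the start, with those at 71, 66 and 60 partly overlapping or adjoining. The Robo1 window, with 56% G and C, held none of the 5 motifs, and Robo1 has further annotated starts, so that this window stands for a single one of them. Among 32851 windows of the same length, 32.7% held a GC box, 6.75% an AP-1 element, 12.6% a TEAD element, 12.4% a TATA box and 1.55% a cAMP response element. Of the 38 windows found for 26 of the tested members, 71.1% held a GC box, 5.26% an AP-1 element and 7.89% a TEAD element. A TATA box was in 2.63% and a cAMP response element in 0%. The median content of G and C was 64.2% in these windows and 52.4% in all windows, which were not limited to tested genes. Whether the share of GC boxes differs beyond this was not tested. A match is a description of letters and says nothing of binding in these cells.

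Robo1's ligand Slit2 did not pass the test. Its control dishes held 363 to 1021 counts with a median of 740, and its ablation dishes 425 to 918 with a median of 690, with full overlap. Pair ratios ran from 0.797-fold in pair 4 to 1.52-fold in pair 3, and 3 of 6 were above 1. The log2 fold change was 0.03 with a standard error of 0.22, or 0.0969 in the paired model (adjusted p = 0.988 and 0.913). Robo2, a second Slit receptor, had 54.3 to 110 counts in controls and 72.9 to 99.4 after ablation, and differed by 0.02 on the log2 scale (adjusted p = 0.99, and 0.961 when paired).

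**Figure D3:**
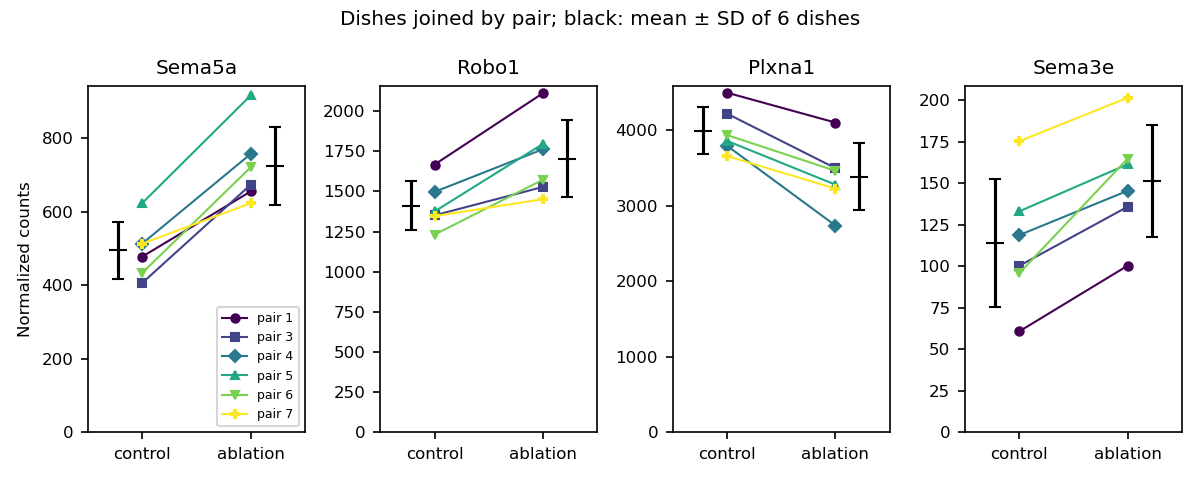
Normalized counts of Sema5a, Robo1, Plxna1 and Sema3e in control and ablation dishes, joined by pair, from 0 upward, with the mean ± SD of 6 dishes per group in black. Every line rises for Sema5a, Robo1 and Sema3e and falls for Plxna1, from a mean of 3995 to 3384 counts.

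Plexins are the receptors of semaphorins and carry a GTPase-activating domain in the cytoplasm. Plxna1 is listed as ENSMUSG00000030084.11 at chr6:89316314-89362620 on the minus strand, with 9054 bases of merged exons. Control dishes held 3659 to 4497 counts with a median of 3898, and ablation dishes 2738 to 4101 with a median of 3371. Only ablation 1 (4101) reached into the range of the controls, and its own control was the highest dish at 4497. All 6 pairs were lower, at 0.912-, 0.829-, 0.722-, 0.850-, 0.880- and 0.882-fold in pairs 1, 3, 4, 5, 6 and 7. The log2 fold change was -0.25, with a standard error of 0.069 and an adjusted p of 0.486 in the model with library set, and 0.0447 and 0.0224 in the paired model. Its paired call was lost without pair 3, 4 or 5 (adjusted p 0.0544, 0.0708 and 0.0659), within either library set (0.127 and 0.105) and with plain moderation (0.159). The opposite-strand gene Gm26811 overlaps 10.7% of its exon bases, at a mean of 0.763 counts.

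The remaining 5 tested plexins did not pass the test in either model. Plxnb2 held 20789 to 23329 counts in controls and 19060 to 22277 after ablation, with a log2 fold change of -0.03 (SE 0.0443, adjusted p = 0.888, and 0.722 when paired). Its paired 95% interval, -0.11 to 0.05, is among the narrowest of the members. Plxnd1, which binds Sema3e directly and is best known from blood vessels, had 58.3 to 101 counts in controls and 49.7 to 86.6 after ablation, with a log2 fold change of -0.17 (SE 0.165, adjusted p = 0.823, and 0.523 when paired). Plxnb1, Plxna2 and Plxna3 had log2 fold changes of -0.02, 0.05 and -0.01. Plxna1 was the only one of the 6 tested plexins past the threshold in the paired model, and a difference in response between plexins was not tested.

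Class 3 semaphorins are the secreted ligands, and 6 of 7 were tested, with 5 log2 fold changes above 0 and a median of 0.24. Over all genes, 6689 of 13792 were above 0. Sema3e, the ligand of Plxnd1, was higher in all 6 pairs. Its controls held 60.8 to 175 counts with a median of 110, and its ablation dishes 100 to 201 with a median of 153, so that the groups overlapped over most of their range. Pair ratios were 1.64-, 1.35-, 1.22-, 1.21-, 1.71- and 1.15-fold in pairs 1, 3, 4, 5, 6 and 7. The log2 fold change of 0.45 had a standard error of 0.20 (unadjusted p = 0.0423, adjusted p = 0.629) in the model with library set and 0.106 (adjusted p = 0.0625) in the paired model, short of the threshold in both. Sema3e passed it in the paired model when no genes were filtered out (adjusted p = 0.0303).

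Sema3d was higher in 5 of 6 pairs, from 0.838-fold in pair 5 to 2.30-fold in pair 3, with controls at 174 to 593 and ablation dishes at 402 to 852 counts (log2 fold change 0.54, adjusted p = 0.693, and 0.163 when paired). Within pairs 4, 6 and 7 alone, the paired model called it higher (0.54, adjusted p = 0.0429). Sema3c, the most abundant class 3 ligand by counts and known from lung and heart development, held 3267 to 5385 counts in controls and 3569 to 5665 after ablation. Its log2 fold change was 0.11 (SE 0.131, adjusted p = 0.856, and 0.32 when paired), with 4 of 6 pairs higher. Sema3a, the prototype repellent that acts through Nrp1 and A plexins, had 12.3 to 39.6 and 17.8 to 38.0 counts and was higher in 5 of 6 pairs, between 0.962- and 1.93-fold. Sema3f, which acts through Nrp2, had a log2 fold change of 0.00 with a paired 95% interval of -0.09 to 0.09. Sema3b, at 12.3 to 28.6 counts over all dishes, ranged from 0.542- to 1.36-fold by pair.

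The coreceptors Nrp1 and Nrp2 did not pass the test. Nrp2, the more abundant, held 1829 to 3033 counts in controls and 1376 to 2743 after ablation (log2 fold change -0.06, SE 0.168, adjusted p = 0.949, and 0.688 when paired). Nrp1 held 207 to 596 and 215 to 543 counts, with a log2 fold change of 0.08. In both groups, the dish of pair 3 was far above the others for Nrp1.

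Membrane-bound semaphorins of classes 4, 6 and 7 gave 6 of 7 log2 fold changes below 0, none past the threshold. Sema5a of class 5, also membrane-bound, was at 0.55. Over all genes, 7103 of 13792 were below 0. With edgeR on the recovered reads, which lacked ablation 3, ablation 4 and control 4, Sema4b, Sema6c and Sema6d were above 0. Sema4a, known as a ligand on immune cells, was lower in all 6 pairs, between 0.712-fold in pair 4 and 0.994-fold in pair 1. Its controls held 763 to 1117 counts and its ablation dishes 587 to 1110 (log2 fold change -0.21, adjusted p = 0.698, and 0.116 when paired). Sema4b was the class 4 member with the highest mean, at 1122 to 1385 counts in controls and 1079 to 1661 after ablation, and its log2 fold change was -0.01 (SE 0.0884, adjusted p = 0.99, and 0.962 when paired). Sema4d, a ligand of B plexins, had a log2 fold change of 0.06.

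Sema4c, which signals through Plxnb2, had 546 to 913 counts in controls and 471 to 1012 after ablation (log2 fold change -0.26, adjusted p = 0.755, and 0.252 when paired). Within pairs 4, 6 and 7 alone, the paired model called it lower (-0.55, adjusted p = 0.0141). The opposite-strand gene D430040D24Rik shares 7.27% of its exon bases, at a mean of 35.8 counts. Sema6c (20.47 to 53.3 counts in controls, 18.98 to 46.8 after ablation) had a log2 fold change of -0.16 (SE 0.25, adjusted p = 0.895, and 0.63 when paired). Sema7a, the class anchored to the membrane by a lipid and known to bind integrins and Plxnc1, had the largest SD of log2 values over the dishes among the members (0.848), with 24.7 to 123.5 counts in controls and 13.6 to 72.3 after ablation. Its log2 fold change was -0.29 (SE 0.449, adjusted p = 0.894, and 0.562 when paired), with pair ratios from 0.433 to 2.08-fold. Sema6d was lower in 5 of 6 pairs, with 1.63-fold in pair 1 as the exception.

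Among netrins and their receptors, no gene passed the threshold. Ntn4 was higher in all 6 pairs, by 1.03- to 1.24-fold, with controls at 681 to 949 counts and a median of 880 and ablation dishes at 758 to 1063 with a median of 977. Its log2 fold change was 0.16 (SE 0.0965, adjusted p = 0.717, and 0.123 when paired). Ntn1, the best known secreted netrin, was near the count minimum, with 10.9 to 36.4 counts in controls and 3.90 to 14.1 after ablation. It had the lowest log2 fold change of the members, -0.61, but a standard error of 0.336 (adjusted p = 0.694, and 0.241 when paired), and control 5 (36.4) was far above the next dish (17.4). Unc5b, a netrin receptor known from vessels and cell survival, held 2598 to 3692 counts in controls and 2591 to 4428 after ablation (log2 fold change 0.14, SE 0.126, adjusted p = 0.814, and 0.324 when paired). Unc5a, its relative at 48.7 to 179 counts over all dishes, stood at -0.45 on the log2 scale (adjusted p = 0.698, and 0.252 when paired), with pair ratios from 0.429 to 1.20-fold. Neo1 had the tightest range of these receptors, 1967 to 2197 counts in controls and 1841 to 2299 after ablation (log2 fold change -0.02, SE 0.0577, adjusted p = 0.962, and 0.898 when paired).

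**Figure D4:**
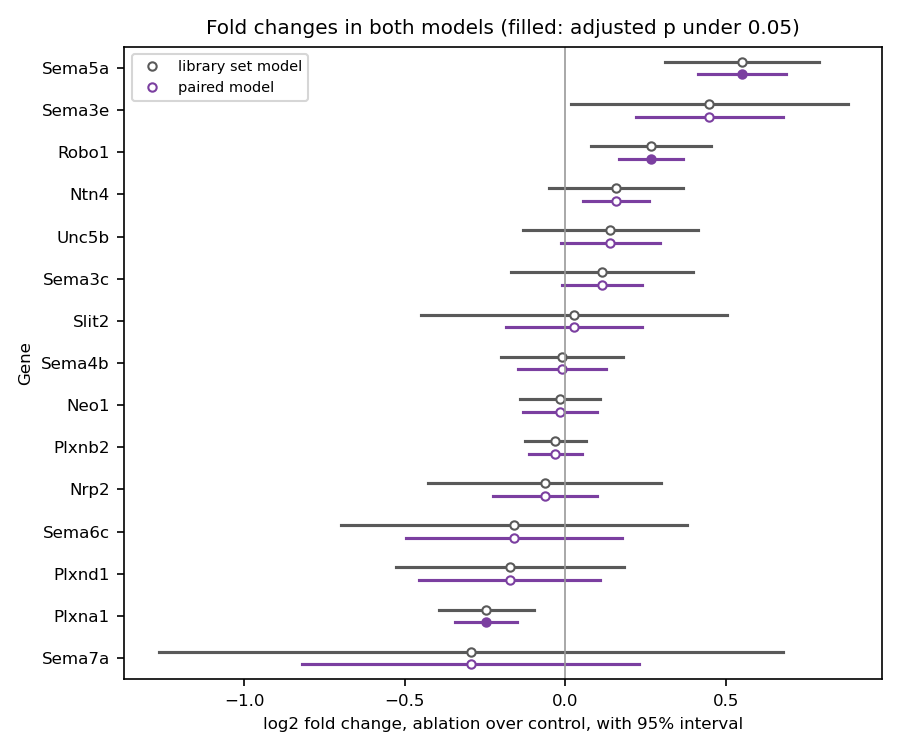
log2 fold changes (ablation over control) with 95% intervals of the 15 members given with full statistics, in the model with library set (grey) and the paired model (purple), where filled points have an adjusted p under 0.05. The filled points are those of Sema5a, Robo1 and Plxna1 in the paired model, and the paired intervals are the shorter ones for all 15 genes.

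Of the 18 members under the count minimum, 3 (Sema5b, Robo4 and Ntn5) were at 0 in every library, and none reached 10 normalized counts in a single one. The highest value among them was 8.62, of Sema4f in a control dish. Robo4, the Robo of endothelial cells, was at 0, as were 3 of the 8 endothelial markers (Kdr, Emcn and Cldn5). Another of these markers, Egfl7, held 32.1 to 63.7 counts. Slit1 and Slit3 held at most 1.17 and 1.91 counts, so that Slit2 was the only Slit above the minimum. Dcc, the classical netrin receptor of neurons, held at most 4.09 counts, and Ntn3, Unc5c and Unc5d at most 0.975, 3.00 and 1.01. Plxna4, Plxnb3 and Plxnc1 reached 5.85, 1.00 and 4.69 counts. Robo3 reached 7.16, Sema3g 5.03, Sema4g 5.85, Sema6a 3.75 and Sema6b 5.84. When no genes were filtered out, the 15 with any count were fitted, and none passed the adjusted threshold (lowest adjusted p = 0.78 in the model with library set and 0.235 in the paired model). Plxna4, a plexin that works with class 3 semaphorins, was the only one with an unadjusted p under 0.05, in both models (0.0301 and 0.0107). It was at 0 to 2.01 counts in controls and 0 to 5.85 after ablation. Of all 28534 genes fitted without a filter, 6.01% had such a p in the model with library set and 11.1% in the paired model. A count of 1 in 15 is thus not above what all genes gave in the paired model and is near it in the other.

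The share of the variance over dishes that went with the pair, that is with the passage, culture day and library set of a dish, was compared with that of the treatment. The pair holds 5 and the treatment 1 of 11 degrees of freedom, so that mean shares of 45.5% and 9.09% arise where neither has an effect. For a term with 1 degree of freedom such shares are skewed, and their median lies below the mean. The medians of the treatment are therefore compared between members and all genes only. The pair took the largest share in 28 of 30 members, against 84% of all tested genes, and its median share was 69.8% for members and 67.6% for all genes. The median share of the treatment was 4.06% for members and 5.47% for all genes. For Nrp1 the pair took 96.2% and for Slit2 90.6%. Slit2 held 363 to 554 counts in the 4 dishes of passage 14, 537 to 827 in those of passage 15 and 842 to 1021 in those of passage 16. All dishes of passage 16 were thus above all of passage 14, which holds for 7.72% of all genes, and Slit2 was the only member of that kind. Nrp1 (332 to 596 in passage 14, 207 to 307 in passage 16) and Plxna2 (860 to 996 and 551 to 826) were lower without overlap, against 6.93% of all genes. Passage, date and, in part, library set go together in these dishes and cannot be told apart.

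**Figure D5:**
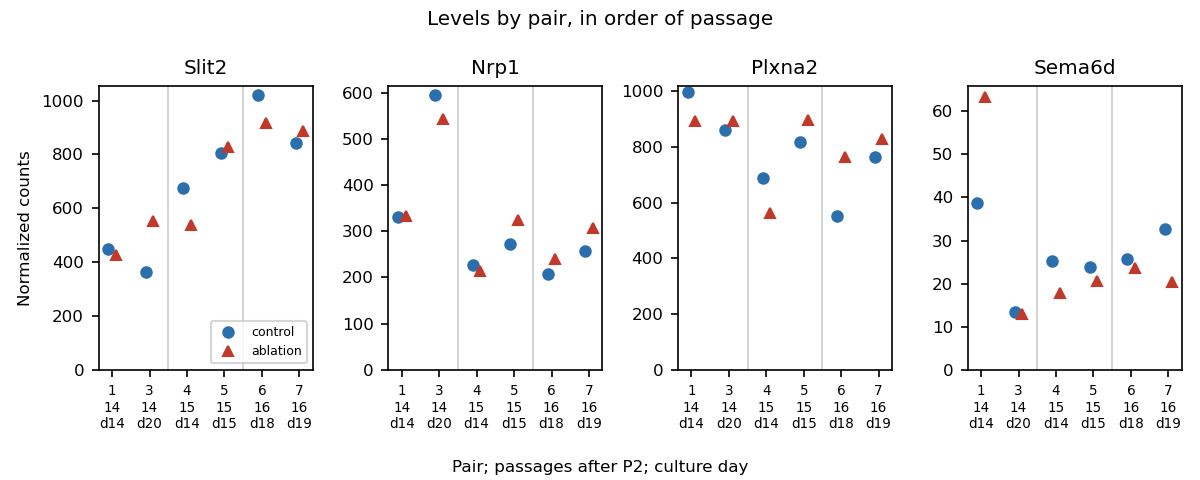
Normalized counts of Slit2, Nrp1, Plxna2 and Sema6d in each dish (control as blue circles, ablation as red triangles), with pairs in order of passage and, beneath each, the pair number, the passages after P2 and the culture day. The 4 Slit2 values of passage 16 lie between 842 and 1021, above the 363 to 554 of passage 14, and both Nrp1 values of pair 3 lie above all others.

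Whether the response differed between the library sets was tested with an interaction term. It passed the threshold for 0 of 30 members in the limma model with library set and in that with the pair as a term, which called 0.00725% of all genes. At an unadjusted p under 0.05, the former had 0 members, against 1.67% of all genes, and the latter 5 of 30 (16.7%; Nrp2, Ntn1, Sema3c, Sema4b and Sema4c), against 7.88% of all genes. The lowest of these, unadjusted p = 0.000428 and adjusted p = 0.252, was for Sema4c, with a log2 fold change of 0.03 in pairs 1, 3 and 5 and of -0.55 in pairs 4, 6 and 7. For Sema5a, the corresponding values of 0.58 and 0.52 were close, and those of Robo1 were 0.30 and 0.23, and those of Plxna1 -0.21 and -0.28.

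The machinery around these receptors was followed with 83 further genes that transmit or bind semaphorin, Slit or netrin signals, of which 81 were listed and 66 tested. In the model with library set, 4 (6.06%) had an unadjusted p under 0.05, 2 with a fold change above and 2 below 0, against 7.85% of all genes, and none passed the adjusted threshold. The paired model called 0 higher and 1 lower (1.52%), against 1.09% of all genes in either direction and 0.413% called lower, so that both shares were near those of all genes. Their median log2 fold change was 0.0012. The gene called lower was Fyn, a Src family kinase that acts downstream of plexins and netrin receptors, with 148 to 330 counts in controls and 114 to 260 after ablation, lower in 6 of 6 pairs (log2 fold change -0.47, adjusted p = 0.346, and 0.0423 when paired). Itga1, an integrin subunit that pairs in the receptor of Sema7a, did not pass the adjusted threshold in either model (log2 fold change -0.53, unadjusted p = 0.0208, paired adjusted p = 0.104). The adaptor Nck1 (0.15, unadjusted p = 0.015, paired adjusted p = 0.0863) and the guanine nucleotide exchange factor Trio (0.16, unadjusted p = 0.0403, paired adjusted p = 0.0914) did not pass it either.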

How the data were processed

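Stranded poly(A) libraries of 12 dishes were sequenced from both ends. The authors processed the reads with nf-core/rnaseq on the GENCODE annotation of GRCm38.p6. The deposited signal values are their counts per gene divided by the DESeq2 size factor of the library, and how the counting used strand is not given in the sources used here. The deposited table also holds the authors' own comparison (log2 fold changes, score columns with standard errors and Wald statistics, and p-values), which was not used. Samples were grouped by their treatment labels. For 9 of 12 libraries the values gave back whole reads. The other 3 were ablation 3, ablation 4 and control 4. In these the step was too near 1 (0.990 to 1.01) for the rule applied to accept it, although 100% of low values were whole multiples of it within 0.1.

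A gene was tested if 6 or more libraries held at least 10 normalized counts of it (13792 of 28534 with any read), in R 4.3.3 with limma 3.58.1 on log2 values with a pseudocount of 1, so that fold changes of low genes are understated. Moderation of variances used a trend and was robust, Benjamini-Hochberg adjustment ran over all tested genes, and calls needed an adjusted p under 0.05. The main model held condition and library set, which stands for a batch that the authors' methods do not name. The paired model held condition and sample number. Same-numbered samples share passage, culture day and date in their titles. Across genes, their deviations from the group means correlated with r from 0.205 to 0.618, and pair 4 alone did not correlate best with its own number. The means with other numbers were -0.135 to -0.0248. Taking deviations from the group means itself pushes these below 0, so that their sign is no sign of unlike dishes. The fits were also run on simulated data with changes larger than those of the 3 called members, so that this run says nothing of calls of their size.

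Alternatives were no second factor, no filter, pseudocounts of 0.5 and 5, plain moderation, quantile and TMM scaling, each library set alone, leaving out each pair, and edgeR 4.0.16 (quasi-likelihood) on the recovered reads of 9 libraries. Leaving out pairs was planned for both models, and the other settings were combined with the pairing after seeing the data. Members with full statistics are Sema5a, Robo1, those with an unadjusted p under 0.05 or called in the paired model, and the most abundant tested member of each class. Members and lists were chosen with earlier results of these data known. Promoter windows were found for 39 of 48 members, and for Plxna1, Ntn1, Sema3b and Sema3f among the tested ones there was no entry. Levels per kb divide by the merged exons of the table, which include exons an airway transcript may lack.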

Additional observations from a re-analysis of the deposited data

Results flagged for a closer look

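Single dishes were compared with the other 5 of their group for each of the 30 tested members, by the gap to the nearest dish as a share of the range, on normalized counts. Of 60 groups of 6 dishes, 7 held a dish that stood apart, where the nominal rate is about 1 in 20, or 3. The groups are not independent, since all come from the same 12 dishes, and the share over all tested genes was not counted. The count of 7 is therefore a description and is not read as an excess among the members. For Nrp1, the dish of pair 3 was highest in both groups, with 543 counts after ablation (others at most 332) and 596 in the control (others at most 332). Pair 3 was also the one with the latest culture day of all, day 20. Mean Nrp1 counts of pairs 1, 3, 4, 5, 6 and 7 were 332, 569, 221, 298, 224 and 282. Their culture days were 14, 20, 14, 15, 18 and 19, and the part of culture day was not tested. In ablation 1, 3 membrane-bound semaphorins were above the other ablation dishes, namely Sema4b (1661, others at most 1267), Sema4c (1012, others at most 612) and Sema6d (63.4, others at most 23.7), and control 1 was the highest control for each of these genes. Ablation 4 was lowest for Plxnb2 (19060, others at least 21395). Control 5 was highest for Ntn1 (36.4, others at most 17.4). None of these concerned Sema5a, Robo1 or Plxna1.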

How the results depend on the processing

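The limma model with library set called 0 genes and 0 members, with 1083 genes at an unadjusted p under 0.05, and edgeR on recovered reads also called 0 genes, with 806 at an unadjusted p under 0.05. With the replicate block (pairing), 150 genes and 3 members were called, and with no filter 3 genes and 0 members. Leaving out each pair in turn gave 0 genes and 0 members in that model throughout. With the pairing kept, the count of genes was 356 without a filter, 0 with plain moderation of variances and 16 in library set 1 alone, and the count of members was 4, 0 and 1. In library set 2 alone, 109 genes and 3 members were called, and these members were Sema5a, Sema3d and Sema4c, with Robo1 and Plxna1 not among them. Without each pair in turn, the paired model called 8 to 176 genes and 1 to 3 members, and the fewest of both were called without pair 4. It called 90 genes without pair 3 and 77 without pair 5. The cause was not tested. In the other paired settings, 150 to 168 genes and 3 members were called.

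The log2 fold changes of Sema5a (0.52 to 0.61), Robo1 (0.24 to 0.30) and Plxna1 (-0.27 to -0.20) without each pair in turn kept their direction, as did those of Sema3e (0.38 to 0.50). Small changes that were not called turned sign. In library set 1 alone, Neo1 was at 0.063, Sema3c at -0.0042 and Sema4b at 0.13. In library set 2 alone, Nrp2 was at 0.094, Sema7a at 0.033 and Slit2 at -0.14. With edgeR on the 9 libraries, Neo1 was at 0.051, Sema4b at 0.071 and Sema6c at 0.10. In all, 7 of the 30 tested members had the other sign (also Nrp1, Plxna3, Plxnb1 and Sema6d, which went from -0.13 to 0.25). Their unadjusted p in edgeR was 0.416 or more, and the share of all genes with the other sign was not counted. This fit lacked ablation 3, ablation 4 and control 4, so that control 3 stood without its partner. The part of the missing dishes in these signs was not tested. Without single pairs, Neo1 ranged from -0.066 to 0.0297, Nrp2 from -0.12 to 0.0044, Sema4b from -0.063 to 0.034 and Slit2 from -0.088 to 0.10. Other scalings moved the median of all genes by under 0.01. Low counts limit what can be said of Ntn1, Sema3a, Sema3b and Sema6d, and of the members under the count minimum none was called in the settings without a filter. The count of 6 members with the same sign in all pairs was the same with a pseudocount of 5, and that of 0 members with a response that differed between library sets was the same with the replicate block.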
